A study of Mus musculus with 9 samples.

Results

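The genes described here make and regulate sterols and fatty acids: 32 genes, taken by symbol from a table of read counts with 52264 gene rows. They comprise the SREBP transcription factors and the proteins that control them (5 genes), the mevalonate arm (6), the steps from farnesyl pyrophosphate to cholesterol (11), a sterol carrier (1), fatty acid synthesis and desaturation (8), and Ch25h, which makes an oxysterol (1). The rule names the genes by symbol and pathway and uses no measured value, but the list was drawn up with earlier results of these data known. Counts came from mouse embryonic stem cells whose genotype label is beta-catenin-/-, in 3 groups of 3 libraries: untreated control, BRD0705, and CHIR (CHIR-99021). BRD0705 inhibits GSK3α selectively, and CHIR inhibits GSK3α and GSK3β. All 3 groups carried the same genotype and had been expanded on feeder-treated dishes in medium with LIF at 40 ng/ml, CHIR at 3 µM and PD03, a MEK inhibitor, at 1 µM, so the control cells had also met CHIR before. The medium was then N2B27 overnight, followed by 30 min of treatment at doses that the labels do not give. The labels do not say whether the 3 libraries of a group came from separate cultures, so the p-values below measure only the spread between these libraries.

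Cells control their sterol supply through SREBP proteins, which are held in the endoplasmic reticulum by Scap and Insig when sterols are plentiful. When sterols fall, Scap escorts them to the Golgi, where they are cut, and the released fragments enter the nucleus and switch on the genes of sterol and fatty acid synthesis. Oxysterols such as the product of Ch25h hold this system back. GSK3 phosphorylates the nuclear fragments, which marks them for destruction by a ubiquitin ligase. Pluripotent stem cells make much of their own lipid, and dividing cells need it for new membrane.

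Each library held 17359422 to 20773337 counts. After a filter on low counts 15366 genes were tested, all 32 sterol and lipid genes among them. The cells carried the markers of their label: the 10 embryonic stem cell markers had a mean log2 CPM (counts scaled to 1000000 per library) of 8.51 to 8.58 in the 9 libraries, with Pou5f1 at 866 CPM or more in each. Ctnnb1, the gene named in the genotype label, had reads in every library (303 to 372 CPM), and gene counts do not show which exons they came from, so the genotype is given as labelled. The 6 primitive endoderm markers ranged from Foxa2 at 0 to 0.0492 CPM, through Gata6 at 1.48 to 2.21 CPM, to Lama1 at 60.0 to 71.5 CPM. Among neural markers Neurog2 was at 0 in all 9 libraries, Pax6 at 1.59 to 2.63 CPM and Nes at 33.6 to 41.5 CPM. Sox1, another neural marker, averaged 4.26 CPM in control against 2.50 CPM in the CHIR libraries, a log2 fold change of -0.76 ± 0.19 for CHIR against control (SE; edgeR adjusted p 0.0203). Fibroblast markers were present as well, with Col1a1 at 1285 to 1788 CPM, in cultures grown on feeder-treated dishes. Their mean log2 CPM over 13 tested markers was 6.12 to 6.35 in control, 6.44 to 6.51 with BRD0705 and 6.22 to 6.50 with CHIR. In such bulk RNA, fewer cells of a type and less RNA per cell cannot be told apart.

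The 32 genes took 0.469 to 0.485% of the counts of the control libraries, 0.500 to 0.516% with BRD0705 and 0.507 to 0.517% with CHIR. Levels were divided by exon length, the bases covered by the exons of all annotated transcripts of a gene. This length can exceed that of the mRNA, with 4919 bases for Tm7sf2 in a gene of 5030 bases, so ranks and percentiles depend on it. By CPM alone Acly, at 543 CPM, stood above Srebf2, at 377 CPM. Divided by this length, the highest values were those of fatty acid genes. Scd2, a stearoyl-CoA desaturase, had 99.5 CPM per kb as the mean of the 9 libraries, and Fasn, the fatty acid synthase, had 73.6 CPM per kb. Next came Scd1, the other desaturase of the pair, at 45.1 CPM per kb and the transcription factor gene Srebf2 at 40.3 CPM per kb. Among all tested genes these 4 stood at percentiles 98.0, 97.1, 95.1 and 94.4. Srebf1, which encodes the SREBP more tied to fatty acid synthesis, was lower at 12.6 CPM per kb. The lowest were the sterol reductase gene Tm7sf2 at 1.69 CPM per kb and Insig2 at 2.34 CPM per kb, so the levels of the 32 genes spanned from percentile 40.2 to percentile 98.0 of tested genes. Ch25h had 2.88 ± 0.254 CPM per kb in control and 6.09 ± 0.491 CPM per kb with CHIR (SD, n = 3 each).

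**Figure D1:**
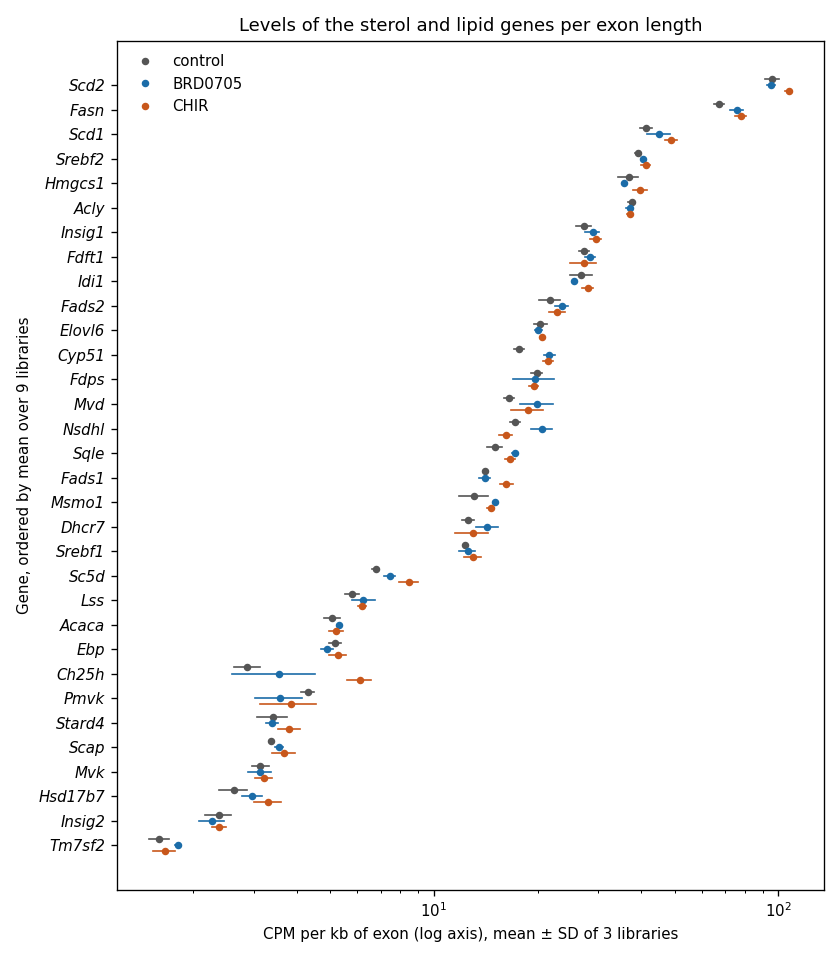
Level of each of the 32 genes as CPM per kb of exon on a log axis, with genes ordered by their mean over the 9 libraries, and points and bars giving the mean and SD of 3 libraries in control (grey), BRD0705 (blue) and CHIR (orange). Scd2, Fasn and Scd1 lie highest and Tm7sf2 lowest, and the groups lie close together for most genes while Ch25h with CHIR stands clear of its control at 6.09 against 2.88 CPM per kb.

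Against control, the genes that passed the test all lay higher under an inhibitor and none lay lower. With BRD0705, 2 of the 32 genes rose, Cyp51 and Nsdhl, both of the cholesterol arm. With CHIR, 7 rose: Cyp51, Hsd17b7 and Sc5d of the cholesterol arm, Fasn, Scd1 and Fads1 of fatty acid synthesis, and Ch25h. Ch25h rose 2.12-fold with CHIR, and the other rises of both inhibitors were of 1.16 to 1.26-fold. A gene passed where its p from the quasi-likelihood test of edgeR, adjusted over 15366 genes by the Benjamini-Hochberg method, was under 0.05. DESeq2, run as an alternative, called 6 with BRD0705: Cyp51, Nsdhl, Mvd, Sqle, Msmo1 and Fasn. With CHIR it called 7, Scd2 in place of Hsd17b7. Of all genes to which DESeq2 gave an adjusted p, it called 6.42% with BRD0705 (484 of 7542) and 6.66% with CHIR (863 of 12961). Not all of the 32 genes had an adjusted p from DESeq2 with BRD0705, Ch25h among those without. In edgeR, over all tested genes 0.690% were called higher and 0.534% lower with BRD0705, and 2.52% higher and 3.78% lower with CHIR. The rest of the 32, 24 genes, passed in no comparison in edgeR. Of all genes called under CHIR 40.0% were higher than control, 26.4% when libraries were scaled by their total alone and 54.1% with DESeq2. The calls among the 32 genes against control were all higher under each of these.

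Counted by groups that did not overlap, 11 of the 32 genes were higher and 1 lower with BRD0705, where 9.83% of all tested genes were higher in this way and 10.4% lower. With CHIR it was 11 higher and 0 lower, against 10.9% and 14.1% of all tested genes. At an unadjusted p under 0.05, 8 genes were higher and 1 lower with BRD0705 (7.77% and 8.08% of all tested genes), and 12 were higher and 0 lower with CHIR (8.96% and 11.5%). The median log2 fold change of the 32 genes was 0.07 with BRD0705 and 0.09 with CHIR, and that of all tested genes was -0.00 and -0.01. Fold changes lay above 0 for 20 of the 32 genes with BRD0705 and for 27 with CHIR. Both comparisons use the same control libraries, so they are not independent of each other.

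**Figure D2:**
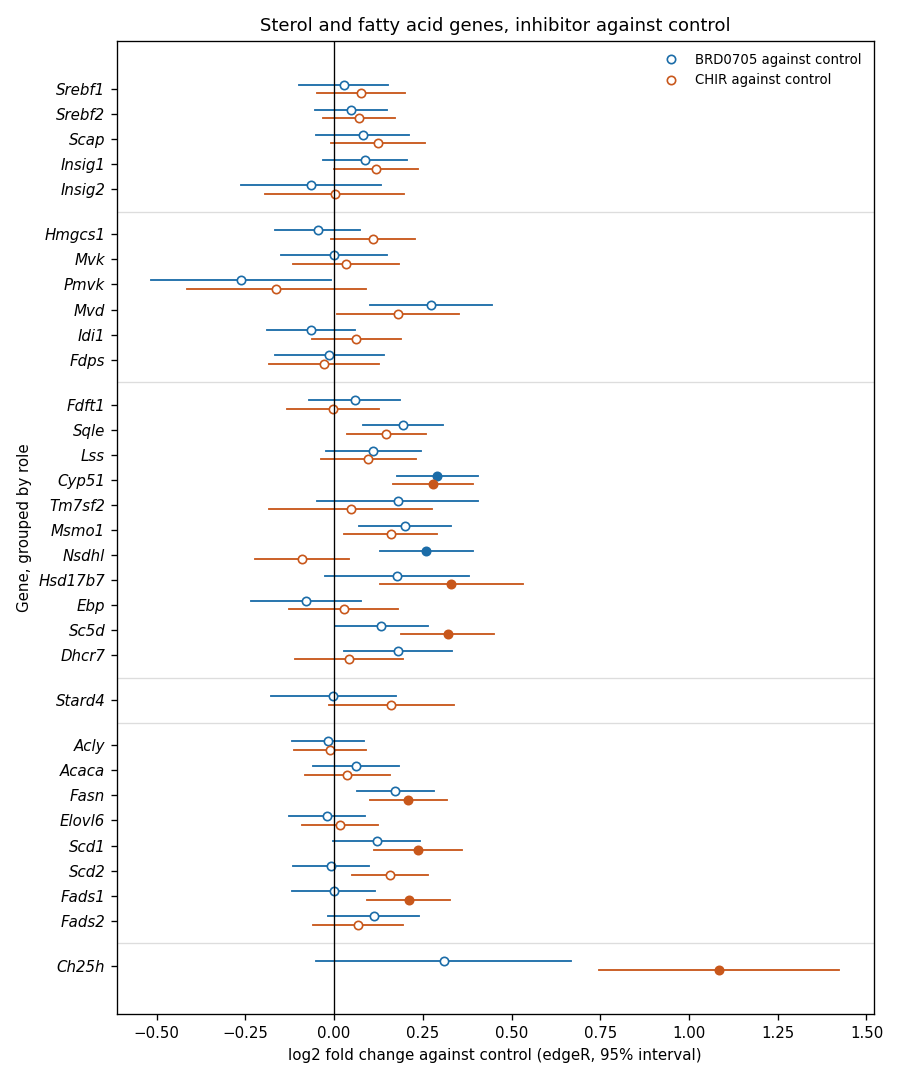
Log2 fold change against control of each of the 32 genes, grouped by role, for BRD0705 (blue) and CHIR (orange), with 95% intervals from edgeR and filled points where the adjusted p was under 0.05. The filled points all lie right of 0, at 0.26 and 0.29 for BRD0705 and from 0.21 to 1.08 for CHIR.

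The transcripts of the sterol sensor itself showed no difference detectable at this depth after 30 min. None of the 5 passed in any comparison in edgeR, nor in DESeq2, which gave no adjusted p for 1 of them with BRD0705, Insig2. Over all tested genes edgeR called 1.22% with BRD0705, 6.30% with CHIR and 7.77% between the inhibitors. At such shares, no call among 5 genes does not set them apart from other genes. In edgeR 1 test of the 15, Insig1 with CHIR, had an unadjusted p under 0.05. With CHIR 8.96% of all tested genes were higher at this p and 11.5% lower. Srebf2, which encodes the SREBP that drives sterol synthesis, was at 368, 359 and 373 CPM in control replicates 1 to 3, at 385, 378 and 374 CPM with BRD0705 and at 371, 386 and 397 CPM with CHIR. The BRD0705 values lay just above the controls and the CHIR values overlapped them. Its log2 fold change was 0.05 with BRD0705 (95% interval -0.05 to 0.15; edgeR adjusted p 0.695) and 0.07 with CHIR (-0.03 to 0.17; edgeR adjusted p 0.467). Srebf1 was at 73.1, 71.7 and 72.7 CPM in control, at 74.3, 69.8 and 77.5 CPM with BRD0705 and at 80.9, 72.4 and 75.8 CPM with CHIR. Both inhibitor groups overlapped the controls, with log2 fold changes of 0.03 and 0.08 (edgeR adjusted p 0.877 and 0.528).

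Scap, the escort of the SREBP proteins, was at 43.3, 42.7 and 43.1 CPM in control, at 46.9, 44.6 and 44.9 CPM with BRD0705 and at 50.9, 44.4 and 45.2 CPM with CHIR. The control values were tight and every inhibitor value was above them, yet the log2 fold changes of 0.08 and 0.12 did not pass (edgeR adjusted p 0.58 and 0.278). Insig1, which retains Scap and is itself a target of the SREBP proteins, was at 126, 133 and 139 CPM in control, at 144, 134 and 146 CPM with BRD0705 and at 147, 138 and 148 CPM with CHIR. Groups overlapped under both inhibitors, and the log2 fold changes were 0.09 and 0.12 (edgeR adjusted p 0.475 and 0.243). Insig2, a relative of Insig1 with the same role, was at 13.4, 13.3 and 15.5 CPM in control, at 13.3, 12.3 and 14.6 CPM with BRD0705 and at 14.3, 14.6 and 13.3 CPM with CHIR. It showed no separation of the groups, with log2 fold changes of -0.06 and 0.00 (edgeR adjusted p 0.8 and 0.996). Between the inhibitors the 5 regulators differed by -0.07 to -0.02 on the log2 scale, BRD0705 over CHIR, and 0 of 5 passed (7.77% of all tested genes). With a correction for GC content and length, Srebf1, Srebf2 and Scap lay on the other side of 0 with BRD0705, at -0.05, -0.05 and -0.02.

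The mevalonate arm, which builds the isoprene units, likewise held no call against control or between the inhibitors in edgeR. Of all tested genes 1.22% were called with BRD0705, 6.30% with CHIR and 7.77% between the inhibitors, so no call among 6 genes does not set the arm apart. An unadjusted p under 0.05 was reached by 1 gene above control and 1 below it with BRD0705 (7.77% and 8.08% of all tested genes). With CHIR it was reached by 1 above control (8.96%). Between the inhibitors it was reached by 2, Hmgcs1 and Idi1, both lower with BRD0705 and without overlap. Of all tested genes 10.5% were lower there at this p, and 12.9% were lower without overlap. Against control, DESeq2 called Mvd higher with BRD0705, and between the inhibitors it called no gene of the arm. Its 6 genes are Hmgcs1, which condenses acetyl units into HMG-CoA, the kinases Mvk and Pmvk, the decarboxylase Mvd, the isomerase Idi1 and Fdps, which makes farnesyl pyrophosphate. Their median log2 fold change was -0.03 with BRD0705 and 0.05 with CHIR, where all tested genes had -0.00 and -0.01. The fold changes of the arm differed in sign, with Mvd and Pmvk at the extremes, and a difference between its genes was not tested. Mvd had log2 fold changes of 0.27 with BRD0705 and 0.18 with CHIR (edgeR adjusted p 0.102 and 0.216). Its BRD0705 libraries, at 58.0, 47.7 and 57.7 CPM, all lay above the controls at 44.0, 44.5 and 46.9 CPM. Pmvk had the opposite sign, at -0.26 and -0.16 (edgeR adjusted p 0.302 and 0.498), with 16.0 to 17.3 CPM in control and 11.7 to 15.9 CPM with BRD0705. It was the only one of the 32 genes whose BRD0705 values all lay below control. Hmgcs1 was at 186 to 209 CPM in control, at 184 to 189.6 CPM with BRD0705 and at 198 to 215 CPM with CHIR, so each inhibitor group overlapped control.

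The arm from farnesyl pyrophosphate to cholesterol held both genes that passed with BRD0705 in edgeR. With this inhibitor 10 of its 11 genes had a fold change above 0 (49.0% of all tested genes), 7 had values above every control (9.83%), and 2 passed (0.690% called higher). The median log2 fold change was 0.18, where that of all tested genes was -0.00. With CHIR 9 of the 11 lay above 0 (47.6% of all tested genes), 5 had values above every control (10.9%), 3 passed (2.52% called higher), and the median was 0.10. The same arm summed to 791 to 811 CPM in the control libraries, 885 to 941 CPM with BRD0705 and 848 to 901 CPM with CHIR. Exons of Cyp51, Nsdhl, Ch25h, Srebf1, Srebf2 and Scap overlap those of Akap9, Cetn2, Gm26902, Rai1, Shisa8 and Ptpn23 on the other strand, and whether counting used strand is not given in the sources used here, so counts of these pairs may be mixed.

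Cyp51, the lanosterol demethylase and the first enzyme to act on lanosterol in this route, rose under both inhibitors. It lies at chr5:4080674-4104697 on the minus strand (GRCm38). Control libraries held 103, 103 and 109 CPM, BRD0705 libraries 130.0, 123 and 132 CPM, and CHIR libraries 131, 123 and 128 CPM. All 6 inhibitor values were above all 3 controls, and the inhibitor groups overlapped each other. The log2 fold change was 0.29 ± 0.05 with BRD0705 (SE; edgeR adjusted p 0.0125) and 0.28 ± 0.05 with CHIR (SE; edgeR adjusted p 0.00436). Between the inhibitors it was 0.01, with a 95% interval of -0.10 to 0.12 (edgeR adjusted p 0.923). The call for CHIR held in all 9 fits that each left out 1 library. The call for BRD0705 was lost without control replicate 2 or BRD0705 replicate 1, where the highest edgeR adjusted p was 0.0767.

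Nsdhl encodes a dehydrogenase that helps to remove methyl groups from the sterol ring, and it separated the inhibitors. It lies at chrX:72918521-72958528 on the plus strand (GRCm38). Control libraries held 65.3, 61.1 and 64.0 CPM, BRD0705 libraries 81.4, 76.0 and 70.9 CPM, and CHIR libraries 56.6, 60.8 and 61.5 CPM. The BRD0705 values stood above all the others, while CHIR and control overlapped. With BRD0705 it rose by 0.26 ± 0.06 log2 units against control (SE; edgeR adjusted p 0.0483), and against CHIR the difference was 0.35 ± 0.06 (SE; edgeR adjusted p 0.00227). CHIR against control gave -0.09 ± 0.06 (SE; edgeR adjusted p 0.467). The difference between the inhibitors passed whichever of the 9 libraries was left out, but the call against control passed in 3 of these 9 fits. The replicate block and the fit of only the groups compared ended the call against control, at edgeR adjusted p values of 0.0573 and 0.0558. It was also lost without control replicate 2 or 3, BRD0705 replicate 1 or 2, or CHIR replicate 2 or 3, up to an edgeR adjusted p of 0.259.

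Sc5d, a desaturase acting near the end of the route, rose with CHIR. It lies at chr9:42251592-42264300 on the minus strand (GRCm38). Control libraries held 41.2, 40.9 and 42.8 CPM, BRD0705 libraries 47.6, 44.4 and 45.0 CPM, and CHIR libraries 55.9, 49.6 and 50.4 CPM. The 3 groups were fully separated, in the order control, BRD0705, CHIR. CHIR gave 0.32 ± 0.06 log2 units against control (SE; edgeR adjusted p 0.00439), and this call held in all 9 fits that left out 1 library. BRD0705 gave 0.13 ± 0.06 (SE; edgeR adjusted p 0.306), and BRD0705 against CHIR -0.19 ± 0.06 (SE; edgeR adjusted p 0.0737), neither of which passed.

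Hsd17b7, the reductase that works beside Nsdhl on the same methyl groups, was expressed at a lower level. It lies at chr1:169949535-169969242 on the minus strand (GRCm38). Control libraries held 12.2, 14.7 and 13.4 CPM, BRD0705 libraries 15.6, 16.0 and 14.1 CPM, and CHIR libraries 15.7, 16.4 and 18.6 CPM. CHIR values lay above all controls and BRD0705 values overlapped both other groups. With CHIR it rose by 0.33 ± 0.10 (log2, SE; edgeR adjusted p 0.0462), and with BRD0705 the change was 0.18 ± 0.10 (SE; edgeR adjusted p 0.394). The CHIR call was also lost with DESeq2, with library size as the only scaling and with only the groups compared in the fit, at adjusted p values of 0.0623, 0.0693 and 0.0501. With 1 library left out in turn, it passed 3 times of 9. Leaving out control replicate 1 or 3, BRD0705 replicate 1 or 2, or CHIR replicate 2 or 3 ended it, with edgeR adjusted p values up to 0.166.

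The other 7 genes of this arm passed in no comparison in edgeR. They are Fdft1, which makes squalene, the epoxidase gene Sqle, the cyclase gene Lss, the reductase gene Tm7sf2, the methyl sterol oxidase gene Msmo1, the isomerase gene Ebp, and Dhcr7, which makes cholesterol in the last step. Sqle came closest with BRD0705, at 134, 127 and 139.8 CPM in control against 155, 153 and 149.9 CPM, a log2 fold change of 0.19 ± 0.05 (SE; edgeR adjusted p 0.0764). Msmo1 had 106, 129 and 115 CPM in control against 135, 134 and 132 CPM with BRD0705, a log2 fold change of 0.20 ± 0.06 (SE; edgeR adjusted p 0.117). Both genes were above every control in the BRD0705 libraries, and DESeq2 called both higher than control. At the other end Ebp had the lowest value with BRD0705, at -0.08, and Fdft1 was at -0.00 with CHIR. Tm7sf2 shares exon sequence on its own strand with its neighbour Vps51, so its counts are uncertain.

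**Figure D3:**
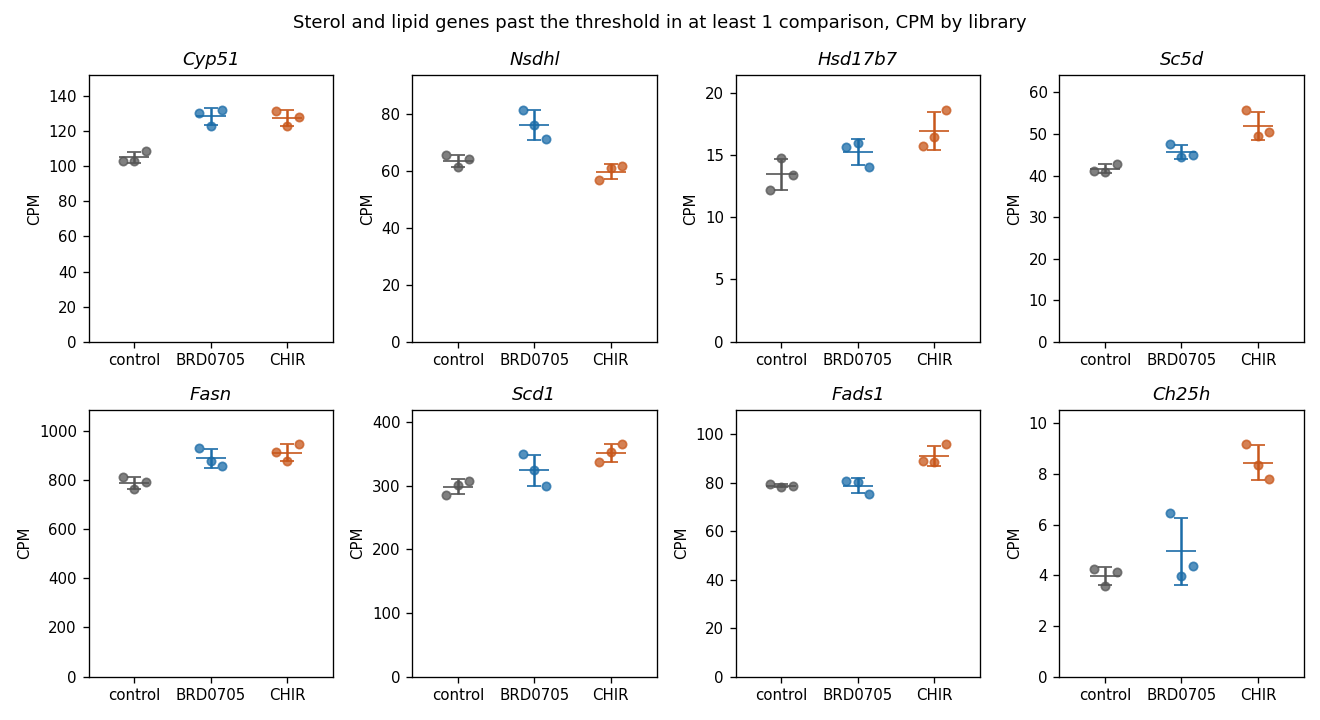
CPM of the 8 genes that passed the threshold in at least 1 comparison, with 1 point per library, 3 libraries per group, horizontal bars at the mean and error bars of 1 SD, on axes that start at 0. Cyp51 is higher in both inhibitor groups, Nsdhl is higher in the BRD0705 libraries, and Ch25h reaches 7.82 to 9.17 CPM with CHIR against 3.58 to 4.24 CPM in control.

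Promoter sequence was read for the genes that RefSeq's table for GRCm38.p6 covers, 25 of the 32. Fdps, Fdft1, Sqle, Stard4, Scd1, Scd2 and Fads1 were not covered. The window was the 250 bases before the transcript start, and 7 motifs were searched on both strands: the sterol regulatory element form TCACNCCAC, the E-box CACGTG, the CCAAT box CCAAT, the Sp1 box GGGCGG, the AP-1 site TGANTCA, the CRE TGACGTCA and an NF-kB form. Matches of different motifs may overlap each other in a sequence. A CCAAT box was found in 19 of the 25 genes (76%), where 37.5% of all genes in the table had it. An Sp1 box was found in 20 (80%, against 35.4%), and an E-box in 5 (20%, against 6.86%). Only Hmgcs1 held the sterol element form (1 of 25, against 1.22% of all genes). Other forms of this element and sequence outside the window were not searched, so the absence of a match does not show that a gene lacks it. The promoters of 3 genes that rose are printed to show these letters in place, and that of Hmgcs1, which did not pass, for the sterol element. Each runs 5′ to 3′ toward the transcript start, with motif matches in capitals.
Cyp51 (chr5:4104698-4104947, minus strand): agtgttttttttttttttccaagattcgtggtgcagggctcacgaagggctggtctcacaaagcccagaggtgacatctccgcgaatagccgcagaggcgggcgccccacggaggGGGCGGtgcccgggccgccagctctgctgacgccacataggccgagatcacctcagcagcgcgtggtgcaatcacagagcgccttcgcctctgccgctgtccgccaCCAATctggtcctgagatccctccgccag
Sc5d (chr9:42264301-42264550, minus strand): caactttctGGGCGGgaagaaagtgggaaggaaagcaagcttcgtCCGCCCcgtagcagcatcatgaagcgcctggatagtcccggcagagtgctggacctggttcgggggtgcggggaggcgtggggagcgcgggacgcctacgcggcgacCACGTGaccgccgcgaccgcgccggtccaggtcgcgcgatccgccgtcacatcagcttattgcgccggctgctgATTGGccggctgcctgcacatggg
Ch25h (chr19:34475149-34475398, minus strand): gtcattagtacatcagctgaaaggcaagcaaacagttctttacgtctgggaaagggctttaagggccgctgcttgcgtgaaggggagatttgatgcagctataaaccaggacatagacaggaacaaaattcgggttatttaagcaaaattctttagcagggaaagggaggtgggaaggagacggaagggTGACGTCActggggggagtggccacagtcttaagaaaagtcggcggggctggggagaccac
Hmgcs1 (chr13:119690101-119690350, plus strand): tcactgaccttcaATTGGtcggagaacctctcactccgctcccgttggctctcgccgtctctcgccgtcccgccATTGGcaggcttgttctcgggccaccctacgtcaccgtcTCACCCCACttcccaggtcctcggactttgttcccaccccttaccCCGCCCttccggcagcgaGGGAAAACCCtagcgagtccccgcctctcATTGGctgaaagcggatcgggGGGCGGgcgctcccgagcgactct

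Read from these windows, the Cyp51 promoter holds a CCAAT box that begins 29 bases before the start and an Sp1 box at 135 bases. Sc5d has an E-box at 98 bases, a CCAAT box on the opposite strand at 24 bases and 2 Sp1 boxes. Hmgcs1 has the sterol element form at 137 bases among 3 CCAAT boxes, 2 Sp1 boxes and an NF-kB form. In the Nsdhl window, which also covers the start of the divergent gene Cetn2, there are CCAAT boxes at 109 and 20 bases and an Sp1 box at 52 bases. The Hsd17b7 window held 3 CCAAT boxes, 3 Sp1 boxes and an E-box, and that of Fasn 3 CCAAT boxes. The Ch25h window held none of these and a CRE at 61 bases, a motif that 1.77% of all genes in the table have. Of the 6 genes with a call and a promoter in the table, 5 had a CCAAT box and 4 an Sp1 box, and of the 19 without a call 14 and 16. A match is a run of letters and says nothing of binding in these cells.

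Of the 8 genes of fatty acid synthesis and desaturation 3 were called higher under CHIR, where 2.52% of all tested genes were. With BRD0705 0 of 8 passed in edgeR (0.690% of all tested genes were called higher), where Fasn had an unadjusted edgeR p of 0.00368 and passed in DESeq2. In the direct comparison 1 of the 8 passed in edgeR, Fads1. The median log2 fold change of the 8 genes was 0.03 with BRD0705 and 0.11 with CHIR. Fasn, which builds palmitate, lies at chr11:120805958-120825166 on the minus strand (GRCm38). Its control libraries held 811, 760.4 and 789.8 CPM, BRD0705 libraries 930.2, 875 and 858 CPM, and CHIR libraries 912, 876 and 944 CPM. All 6 inhibitor values were above the 3 controls, and the inhibitor groups overlapped. With CHIR it rose by 0.21 ± 0.05 log2 units (SE; edgeR adjusted p 0.0212), while 0.17 ± 0.05 with BRD0705 did not pass (SE; edgeR adjusted p 0.104). The difference between the inhibitors was -0.04, with a 95% interval of -0.15 to 0.07 (edgeR adjusted p 0.737), so the call under CHIR alone is no evidence that they differ. The CHIR call was lost without control replicate 2 or 3 or CHIR replicate 3, up to an edgeR adjusted p of 0.0795.

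Scd1 introduces the double bond that turns saturated into monounsaturated fatty acids. It lies at chr19:44394450-44407709 on the minus strand (GRCm38), next to its close relative Scd2, and reads of the pair could be split. Control libraries held 286, 302 and 308 CPM, BRD0705 libraries 349, 324 and 299.9 CPM, and CHIR libraries 337, 353 and 365 CPM. CHIR values were above every control, and BRD0705 values overlapped both groups. With CHIR it rose by 0.24 ± 0.06 log2 units (SE; edgeR adjusted p 0.0219), a call lost without control replicate 1 or 2 or CHIR replicate 2 or 3, up to an edgeR adjusted p of 0.077. BRD0705 against control gave 0.12 ± 0.06 and BRD0705 against CHIR -0.12 ± 0.06 (log2, SE; edgeR adjusted p 0.332 and 0.252). Scd2 stood at 684, 749 and 734 CPM in control, 733, 726 and 695 CPM with BRD0705 and 795, 797 and 826 CPM with CHIR. The CHIR libraries of Scd2 also lay above all others, but its fold changes did not pass in edgeR against control (0.16 ± 0.05 log2, SE; edgeR adjusted p 0.0728) or between the inhibitors (-0.17 ± 0.05 log2, SE; edgeR adjusted p 0.0511). DESeq2 called Scd2 in both of these comparisons.

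Fads1, a desaturase of polyunsaturated fatty acid synthesis, lies at chr19:10182877-10196874 on the plus strand (GRCm38). Its exons overlap those of Gm59251 and Gm59252 on the other strand, over 368 and 516 bases. Neither of these has a row among the counts, so whether their reads are mixed with those of Fads1 could not be checked. Control libraries held 79.3, 78.0 and 78.6 CPM, BRD0705 libraries 80.8, 80.0 and 75.1 CPM, and CHIR libraries 88.9, 88.4 and 95.7 CPM. CHIR stood apart from both other groups, which overlapped. It rose by 0.21 ± 0.06 log2 units with CHIR against control (SE; edgeR adjusted p 0.0299), and BRD0705 against CHIR gave -0.21 ± 0.06 (SE; edgeR adjusted p 0.0271). BRD0705 against control gave -0.00 ± 0.06 (SE; edgeR adjusted p 0.997). Both calls passed 5 times of 9 with 1 library left out in turn. Against control it was lost without control replicate 2 or 3 or CHIR replicate 2 or 3 (up to edgeR adjusted p 0.112), and between the inhibitors without BRD0705 replicate 2 or 3 or CHIR replicate 2 or 3 (up to 0.103). Library size as the only scaling also ended both, at edgeR adjusted p values of 0.0515 and 0.0524.

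The remaining fatty acid genes showed little movement. Acly, which supplies acetyl-CoA, was at -0.02 and -0.01 on the log2 scale with BRD0705 and CHIR, and Acaca, which makes malonyl-CoA, at 0.06 and 0.04. Elovl6, an elongase, was at -0.02 and 0.02, and Fads2, the partner of Fads1, at 0.11 and 0.07. None of the 4 passed. Acly spanned 532 to 555 CPM in control, 524 to 548 CPM with BRD0705 and 534 to 555 CPM with CHIR. Stard4, a soluble carrier of cholesterol, was at 18.5 to 22.6 CPM in control, 19.9 to 21.6 CPM with BRD0705 and 22.1 to 25.2 CPM with CHIR, and passed in no comparison.

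Ch25h had the largest fold change of the 32 genes, with CHIR, and the lowest CPM in control. This intronless gene, with 1 exon in GENCODE vM39, encodes cholesterol 25-hydroxylase and lies at chr19:34473783-34475148 on the minus strand (GRCm38). Control libraries held 4.24, 3.58 and 4.14 CPM, BRD0705 libraries 6.47, 3.98 and 4.37 CPM, and CHIR libraries 9.17, 8.37 and 7.82 CPM. CHIR values exceeded all others, and of the BRD0705 libraries only replicate 1 stood above the controls by more than their spread. The rise with CHIR was 1.08 ± 0.16 log2 units (SE; edgeR adjusted p 0.000548). BRD0705 gave 0.31 ± 0.17 against control (SE; edgeR adjusted p 0.405), with a 95% interval of -0.05 to 0.67. BRD0705 against CHIR gave -0.78 ± 0.16 (SE; edgeR adjusted p 0.00538). Both CHIR calls passed whichever of the 9 libraries was left out. Without BRD0705 replicate 1 the change with BRD0705 was 0.07 on the log2 scale.

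In the direct comparison of the inhibitors, 1 of the 32 genes was higher with BRD0705, Nsdhl, and 2 were lower, Fads1 and Ch25h. Over all tested genes 4.80% were called higher and 2.97% lower. Groups that did not overlap were 2 higher and 7 lower among the 32 genes, against 13.7% and 12.9% of all tested genes. At an unadjusted p under 0.05 it was 1 higher and 6 lower, against 12.0% and 10.5%. The median log2 difference was -0.04 for the 32 genes and 0.00 for all. Of all calls 61.8% were higher with BRD0705, 79.2% when libraries were scaled by their total alone and 52.7% with DESeq2. The remaining 29 genes did not pass in edgeR, and their intervals in the plot of the direct comparison show which sizes of difference these libraries leave possible. DESeq2 called the same 3 genes and also Scd2, lower with BRD0705, where it called 8.28% of all genes with an adjusted p.

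**Figure D4:**
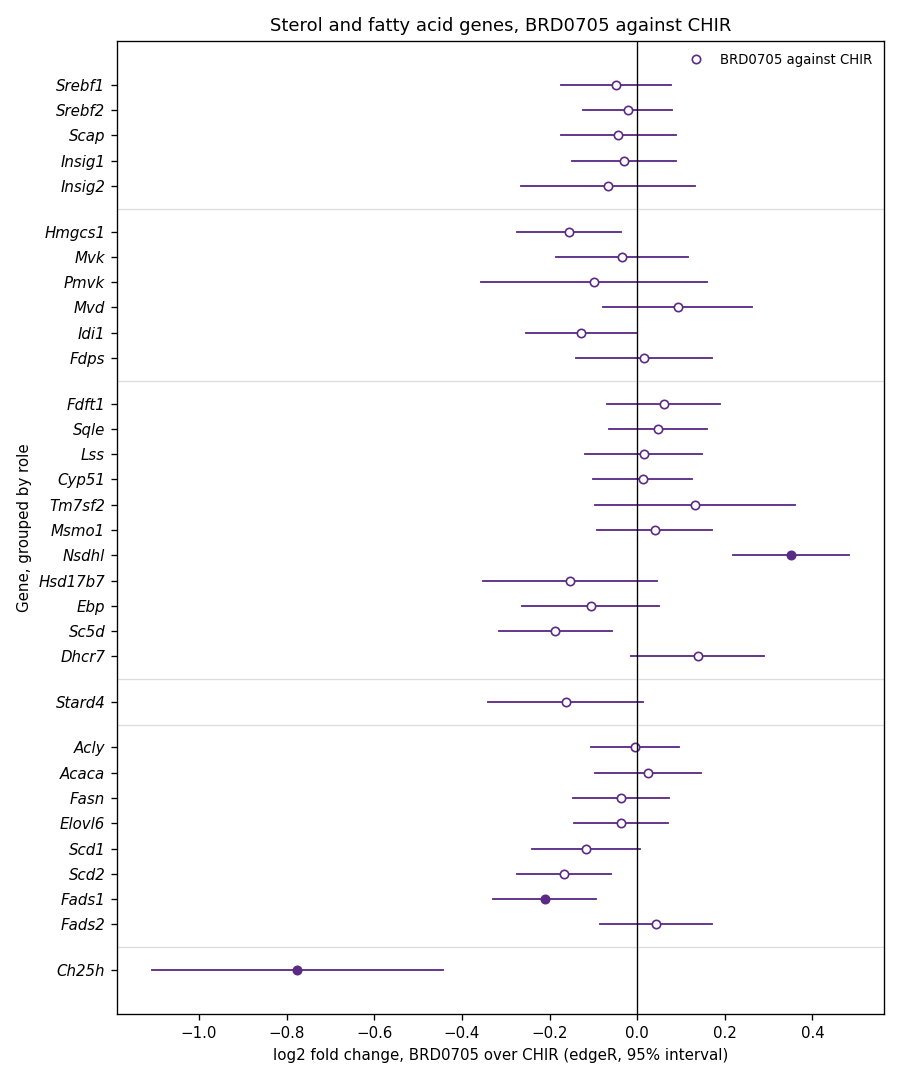
Log2 fold change of BRD0705 over CHIR for each of the 32 genes, grouped by role, with 95% intervals from edgeR and filled points where the adjusted p was under 0.05. Nsdhl lies at 0.35, Fads1 at -0.21 and Ch25h at -0.78, and the other intervals mostly span 0.

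Fibroblast markers moved in the same direction as these genes. All 13 tested markers had fold changes above 0 under both inhibitors, Col1a1 and Col5a1 passed in each, and Fap was too low to test. Their summed level was 2518 to 3010 CPM in control, 3199 to 3295 CPM with BRD0705 and 2847 to 3417 CPM with CHIR. CHIR replicate 3 had a marker score of 6.22, within the control range of 6.12 to 6.35. All 7 genes called under CHIR were above every control in that library, but it was itself used in calling them. Their position there is therefore no separate test. No BRD0705 library had a score within the control range. With the score as a covariate in the edgeR fit, 0 of the 32 genes and 0 of all 15366 passed with BRD0705, where 9 and 1307 had an unadjusted p under 0.05. With the same covariate 2 of the 32 genes passed with CHIR (Hsd17b7 and Ch25h), where 1.77% of all tested genes passed. Between the inhibitors 2 of the 32 passed (Nsdhl and Ch25h), where 5.95% of all tested genes did. Cyp51 then had edgeR adjusted p values of 0.374 with BRD0705 and 0.0559 with CHIR, at log2 fold changes of 0.29 and 0.28 (0.29 and 0.28 without the covariate). How much of the reads of these genes came from feeder cells was not tested.

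**Figure D5:**
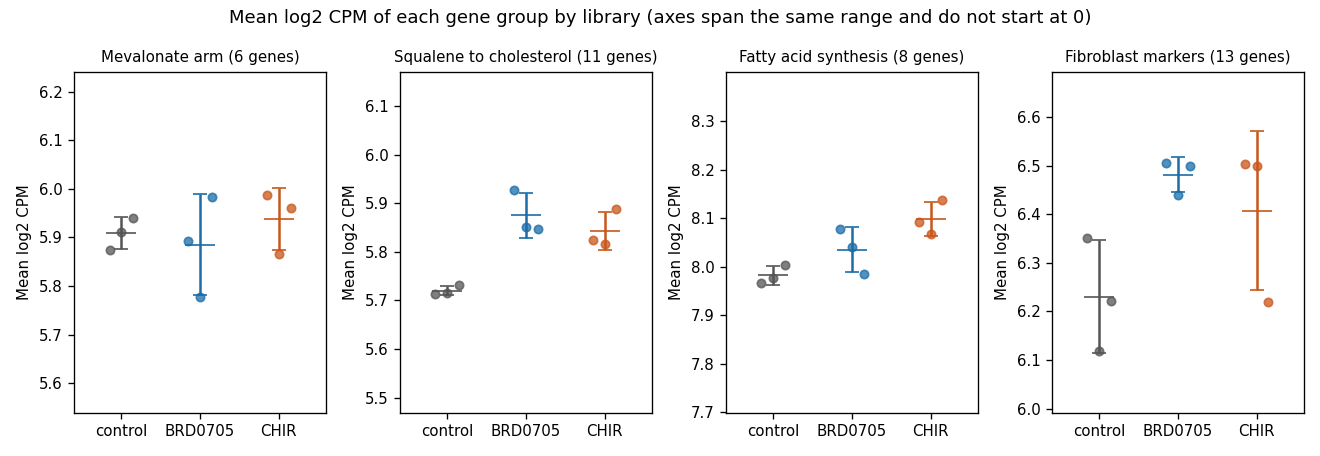
Mean log2 CPM of the genes of 3 arms and of the 13 fibroblast markers, with 1 point per library and the mean and SD of 3 libraries per group, on axes that do not start at 0 but span equal ranges. The arm from squalene to cholesterol lies above control in all 6 inhibitor libraries (5.71 to 5.73 in control), the mevalonate arm overlaps, and CHIR replicate 3 falls within the controls for the fibroblast markers.

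Further genes of lipid metabolism were taken from 6 lists: other steps of sterol synthesis, other fatty acid and lipid genes, processing and turnover of the SREBP proteins, LXR targets with sterol export, oxysterol and ester formation, and uptake and trafficking. Of 94 such genes 93 were in the table and 89 were tested. None of the 89 passed with BRD0705 in edgeR, where 1.22% of all tested genes were called. There an unadjusted p under 0.05 was reached by 11 genes above control and 7 below it (7.77% and 8.08% of all tested genes). DESeq2 called 3 of the 57 to which it gave an adjusted p, all higher, among them Por and Scarb1. Of all genes with an adjusted p it called 6.42%. With CHIR 5 rose and 1 fell, 6.74% of the 89, where 6.30% of all tested genes were called, so the share lay near that of all genes. Erg28, a scaffold of the sterol demethylation enzymes, rose by 0.29 ± 0.08 log2 units (SE; edgeR adjusted p 0.0262). Erlin1, which takes part in the turnover of sterol regulators in the endoplasmic reticulum, rose by 0.28 ± 0.06 (SE; edgeR adjusted p 0.015). Scarb1, the receptor for high-density lipoprotein, rose by 0.26 ± 0.06, from 86.5 to 103 CPM (SE; edgeR adjusted p 0.0104). Elovl1, an elongase of very long chains, and Hsd3b7, a bile acid enzyme, rose, by 0.31 ± 0.09 and 0.49 ± 0.14 log2 units (SE; edgeR adjusted p 0.0377 and 0.0434), and Mcat, of mitochondrial fatty acid synthesis, fell by 0.33 (SE 0.08; edgeR adjusted p 0.0242). With CHIR, DESeq2 called 5 of the 83 to which it gave an adjusted p, all higher. Erg28, Erlin1 and Scarb1 were among them, and Elovl1, Hsd3b7 and Mcat were not. Of all genes with an adjusted p it called 6.66%.

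Between the inhibitors 2 of the 89 genes were higher with BRD0705 and 6 lower, 8.99% in all, where 7.77% of all tested genes were called. The higher ones were Faf2 and Gramd1b, which carries sterol from the plasma membrane, at 0.18 ± 0.05 and 0.22 ± 0.06 (log2, SE; edgeR adjusted p 0.047 and 0.0321). Lower ones were Erg28, Erlin1 and Rnf145, a ubiquitin ligase of the sterol system, at -0.25 ± 0.08, -0.33 ± 0.07 and -0.22 ± 0.05 (log2, SE; edgeR adjusted p 0.0478, 0.0042 and 0.0172). The other lower ones were Elovl7, Acsl3 and Hsd17b12, of fatty acid elongation and activation, at -0.70 ± 0.18, -0.23 ± 0.06 and -0.19 ± 0.06 (log2, SE; edgeR adjusted p 0.0268, 0.0286 and 0.0377). DESeq2 called 4 of the 83 to which it gave an adjusted p here, all lower: Erlin1, Rnf145, Acsl3 and Hsd17b12. Faf2, Gramd1b, Erg28 and Elovl7 were not among its calls. Of all genes with an adjusted p it called 8.28%. The 13 genes of LXR activity and export included no call in any of the 3 comparisons in edgeR or, for the 6 to 11 with an adjusted p, in DESeq2. Of all tested genes edgeR called 1.22% with BRD0705, 6.30% with CHIR and 7.77% between the inhibitors. At an unadjusted p under 0.05, 1 was higher and 3 lower with BRD0705 (7.77% and 8.08% of all tested genes). With CHIR 2 were lower (11.5%), and between the inhibitors 1 was higher and 1 lower (12.0% and 10.5%).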

How the data were processed

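RNA sequencing libraries (9, 3 per group) were grouped by the library descriptions. The deposited values are raw counts of reads, whole numbers, in 1 row per gene symbol; the submitters' processing notes name RSEM, DESeq2 and the build mm10, without versions or roles, and strand use is not given in the sources used here. The molecule label says polyA RNA while the library protocol names RiboZero and total RNA, and the series text and the sample protocols name different extraction kits. The authors' deposited normalized table was not used.

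Counts were fitted with edgeR 4.0.16 in R 4.3.3: TMM scaling, filterByExpr with a minimum count of 10, 3 group means over 9 libraries (6 residual degrees of freedom), the quasi-likelihood F test, 2-sided, and Benjamini-Hochberg adjustment over 15366 genes at 0.05. The SE of a log2 fold change was taken from its F statistic. CPM was computed on TMM-scaled totals, and its log2 with a prior count of 2. The procedure was tested on simulated counts. Exon lengths came from GENCODE vM39 and positions and promoters from RefSeq GRCm38.p6, the primary assembly of mm10. No pair of libraries within a group agreed within sampling noise (chi-square per degree of freedom 3.40 to 8.05).

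Given in full were the 5 regulators, Ch25h, each gene past the threshold in a comparison and the 2 with the lowest p in each; of the other pathway lists, those past the threshold. Some items of the lists are not reported here. The 32 genes and all lists were chosen with earlier results of these data known. Alternatives were a replicate block, DESeq2 1.42.0, edgeR with the size factors of DESeq2, scaling by library size only, no filter, a filter at a mean CPM of 1, a fit of the compared groups alone, the fibroblast marker score (mean log2 CPM of 13 markers) as a covariate, a correction for GC content and length (splines, 5 degrees of freedom each) with and without the block, and leaving out each library.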

Additional observations from a re-analysis of the deposited data

How the results depend on the processing

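With BRD0705 against control, 2 of the 32 genes passed. The count was 1 with the replicate block (Cyp51), 6 with DESeq2 (Cyp51, Nsdhl, Mvd, Sqle, Msmo1 and Fasn), 4 without a filter, 1 with only the groups compared, 0 with the fibroblast covariate, and 0 to 2 when 1 library was left out (0 without control replicate 2 or BRD0705 replicate 1, and 1 without control replicate 3, BRD0705 replicate 2 or CHIR replicate 2 or 3). The GC and length correction gave 3, with or without the block. The share of all genes called moved as well. It was 1.22% in the main fit, 1.44% with the block, 6.42% with DESeq2 and 2.28% without a filter. With only the groups compared it was 1.21%, with the covariate 0.00%, and with 1 library left out 0.135 to 1.96%. The GC and length correction gave 0.784%, or 0.777% with the block. With CHIR the 7 became 2 with the fibroblast covariate and 3 to 8 when 1 library was left out (3 without CHIR replicate 3, 4 without control replicate 3 or CHIR replicate 2), and 5 to 8 under the other alternatives. Between the inhibitors the count was 2 to 4 under all of them. The share of all genes called with CHIR was 6.30% in the main fit and 1.77% with the covariate. It was 3.28 to 6.86% with 1 library left out and 4.97 to 8.18% under the other alternatives. Between the inhibitors it was 7.77% in the main fit and 3.94 to 9.03% under the alternatives. The median log2 fold change of the 32 genes stayed above 0 against control for both inhibitors under every alternative. The replicate block changed no other call. Labels do not say that equal replicate numbers were handled together, and the deviations of same-numbered libraries had correlations of -0.0897 to 0.0802 over 9 pairs.

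Signs turned only for values near 0 that did not pass in the comparison given. With BRD0705, Fads1 was at 0.0054 with DESeq2, 0.0049 with its size factors, 0.0048 with library size only, 0.0026 without a filter, 0.0064 at a mean CPM of at least 1, 0.0591 with the fibroblast covariate, and -0.018 to 0.041 with 1 library left out. Srebf1 was at -0.0073 with the covariate and, with Srebf2 and Scap, at -0.0539, -0.0470 and -0.0214 with the GC correction (-0.0551, -0.0465 and -0.0215 with the block). Insig2 with BRD0705 ranged from -0.122 to 0.0189 with 1 library left out, and with CHIR from -0.0278 to 0.0853, at -0.0239 with library size only and -0.0606 with the covariate. Between the inhibitors library size only gave 0.0110 for Srebf2 and 0.0017 for Insig1, and with 1 library left out Scap ranged from -0.0825 to 0.0213, Insig1 from -0.0620 to 0.0054 and Cyp51 from -0.0164 to 0.0403. The cause was not tested. Low depth widens the error: for Ch25h, at 3.58 to 4.24 CPM in control, its SE with CHIR was 0.16, against 0.05 for Fasn.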

Other observations

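Within the BRD0705 group, replicate 1 was the highest of the 3 libraries for 18 of the 32 sterol and lipid genes (56.2%), where it was the highest for 32% of all tested genes. Replicates 2 and 3 were highest for 6 and 8 of them. Among the CHIR libraries replicate 3 was highest for 15 (46.9%, against 33.7% of all tested genes).

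Some of these genes share exon bases with a gene on the other strand, and reads of such a pair cannot be told apart unless strand was used in counting. Akap9, opposite Cyp51 over 1253 bases, had log2 fold changes of 0.00 with BRD0705 and -0.06 with CHIR, where Cyp51 rose. Cetn2, opposite Nsdhl over 331 bases, was at -0.18 with BRD0705 and -0.25 between the inhibitors (edgeR adjusted p 0.369 and 0.104), where Nsdhl was higher. Gm26902, opposite Ch25h over 698 bases, had a mean of 0.513 CPM. Gm59251 and Gm59252, opposite Fads1, had no row among the counts. The same held for Gm71271, opposite Cyp51, and Gm56711, opposite Srebf2. Shisa8, opposite Srebf2 over 686 bases, was at 0.21 with BRD0705 and -0.13 with CHIR, and Ptpn23, opposite Scap over 53 bases, at 0.19 and 0.22, none of which passed. Rai1, opposite Srebf1 over 114 bases, rose with BRD0705 by 0.38 ± 0.09 log2 units (SE; edgeR adjusted p 0.0426), while Srebf1 did not pass.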
